A study of Mus musculus with 6 samples.

Results

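The phagocyte NADPH oxidase and the enzymes that remove its products were followed through 9 genes, 5 for the oxidase (Cybb, Cyba, Ncf1, Ncf4 and Rac2) and 4 for antioxidant enzymes (Sod1, Sod2, Cat and Gpx1). They were chosen by name, for what their proteins do, with earlier results of these data known. Matched by gene symbol among the 24984 genes of the count table, all 9 were found. RNA was sequenced from microglia sorted out of lysolecithin (LPC) lesions of the corpus callosum, a toxin model in which myelin is lost and then regrows. Male C57BL/6J mice aged 10 weeks each received 2 µl of 1% LPC, and 3 mice were studied at day 3 and 3 at day 10, giving 3 libraries per group. Both groups carried the lesion and there was no uninjured group, so the comparison is between times after injection. The sorting gate kept CD11b+ Ly6G- CD3- CD45lo cells, a gate that removes neutrophils and T cells by surface marker and takes all CD45lo microglia of the dissected lesion together. The question put to these libraries is whether RNA for the oxidase and for its counterweights differed between days 3 and 10.

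The phagocyte oxidase is a membrane enzyme that passes electrons from NADPH to oxygen and so makes superoxide. Cybb (NOX2, gp91phox) holds the catalytic path and needs Cyba (p22phox) as its membrane partner, while Ncf1 (p47phox) and Ncf4 (p40phox) wait in the cytosol and move to the membrane with a Rac GTPase when the cell is stimulated. Superoxide dismutases turn superoxide into hydrogen peroxide, Sod1 mainly in the cytosol and Sod2 in mitochondria. Catalase (Cat) in peroxisomes and glutathione peroxidase (Gpx1) then reduce the peroxide to water. Assembly of the oxidase is controlled largely after translation, so RNA levels are not a measure of superoxide output.

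RefSeq promoters on GRCm38.p6 were given for 7 of the 9 genes, and 5 of them are shown because each holds, before its start, a core motif of a factor tied to phagocyte, interferon or oxidant-responsive transcription. The sequences are the 250 bases before the RefSeq start, read 5′ to 3′ on the gene's own strand, with motif matches in capitals. The motifs were GAAA repeated after a gap of 2 bases (the core of an interferon response element), TGACNNNGC (the core of an antioxidant response element) and GAGGAA (the core of a PU.1 site), each searched on both strands over 300 bases that include 50 after the start; no matches overlapped. The regions are chrX:9469325-9469574 (minus strand) for Cybb, chr5:134229626-134229875 (minus strand) for Ncf1, chr16:90220512-90220761 (plus strand) for Sod1, chr17:13007589-13007838 (plus strand) for Sod2 and chr2:103485154-103485403 (minus strand) for Cat.
Cybb: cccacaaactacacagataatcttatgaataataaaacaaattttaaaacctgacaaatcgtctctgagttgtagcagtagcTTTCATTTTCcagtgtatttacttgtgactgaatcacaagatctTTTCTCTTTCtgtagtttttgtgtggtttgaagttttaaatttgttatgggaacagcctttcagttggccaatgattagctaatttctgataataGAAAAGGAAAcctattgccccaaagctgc
Ncf1: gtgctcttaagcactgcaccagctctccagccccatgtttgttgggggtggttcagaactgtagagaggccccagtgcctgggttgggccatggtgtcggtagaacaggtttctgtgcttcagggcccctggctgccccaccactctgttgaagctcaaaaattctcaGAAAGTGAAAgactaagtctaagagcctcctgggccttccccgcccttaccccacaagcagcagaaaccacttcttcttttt
Sod1: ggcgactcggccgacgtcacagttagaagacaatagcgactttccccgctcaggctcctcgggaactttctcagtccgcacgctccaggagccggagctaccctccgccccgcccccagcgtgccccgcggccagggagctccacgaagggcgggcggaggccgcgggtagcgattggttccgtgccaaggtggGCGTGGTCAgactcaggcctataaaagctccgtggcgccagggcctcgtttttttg
Sod2: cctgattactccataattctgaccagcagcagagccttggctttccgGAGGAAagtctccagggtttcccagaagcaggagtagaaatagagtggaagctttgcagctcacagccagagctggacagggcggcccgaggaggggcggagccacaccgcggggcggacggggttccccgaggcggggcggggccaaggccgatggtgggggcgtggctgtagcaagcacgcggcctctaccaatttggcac
Cat: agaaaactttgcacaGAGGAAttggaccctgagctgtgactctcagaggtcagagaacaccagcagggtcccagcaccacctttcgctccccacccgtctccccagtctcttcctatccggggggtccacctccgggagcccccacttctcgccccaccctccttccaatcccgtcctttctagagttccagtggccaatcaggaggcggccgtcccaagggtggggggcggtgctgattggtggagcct

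Cybb held 3 interferon-response cores, which began 168, 124 and 29 bases before its start, and Ncf1 held 1, at 82 bases. These were the 2 of 7 promoters with this motif, which occurred in 3.44% of the 32851 RefSeq promoters of the same length. The antioxidant-response core occurred in 1 of 7, Sod1, at 56 bases before the start, against 12.4% of all promoters. The PU.1 core occurred in 3 of 7 (Sod2 at 203 bases before the start, Cat at 235, and Cybb at 10 bases past it) against 28.3% of all promoters. Cyba and Gpx1 held none of the motifs. A match describes the letters of the window only.

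Library totals ran from 5890081 to 9212197 gene-assigned counts. All 10 microglial marker genes had counts in every library, led by Csf1r, the receptor on which microglial survival depends, at 2377 to 14833 CPM. Levels here are in CPM, counts scaled to a common library total and by TMM factors, a scaling that assumes most genes keep their level. The third day 10 library was unlike the others. This library, LPC day 10 replicate 3, had 10416 genes with a count against 12691 to 16013 elsewhere, and its correlations with the other libraries were 0.549 to 0.619 against 0.616 to 0.732 among the rest, so each fold change of the 9 genes is given with it and without it. With 3 libraries a group, p-values set the difference between groups against the spread between these libraries, a spread estimated partly across genes. LPC day 10 replicate 1 also stood apart in 2 measures. TMM factors were 1.46 in LPC day 10 replicate 1 and 0.637 in LPC day 10 replicate 3, against 0.906 to 1.13 in the others. Mitochondrial ribosomal RNA made up 9.32% of counts in LPC day 10 replicate 1 and 14.5% in LPC day 10 replicate 3. In the others it made up 27.1% to 32.9%.

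None of the 9 genes was called between day 10 and day 3 in edgeR's quasi-likelihood F-test with a Benjamini-Hochberg adjusted p below 0.05, a threshold that 0.114% of the 10535 genes tested passed (12 genes, all higher at day 10). None passed an unadjusted p under 0.05 either, which 6.13% of all tested genes did. For none of the 9 did the 3 libraries of one day lie wholly above or wholly below those of the other, a separation seen in 3.47% of tested genes for higher at day 10 and in 4.97% for lower. The median log2 fold change of the 9 genes, day 10 minus day 3, was −0.31, beside 0 over all tested genes. All 9 passed the filter on low counts. Without LPC day 10 replicate 3 the count called was again 0 of 9, where 0.00821% of 12173 genes were called. In bulk RNA, a lower share of expressing cells and less RNA per cell cannot be told apart.

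**Figure D1:**
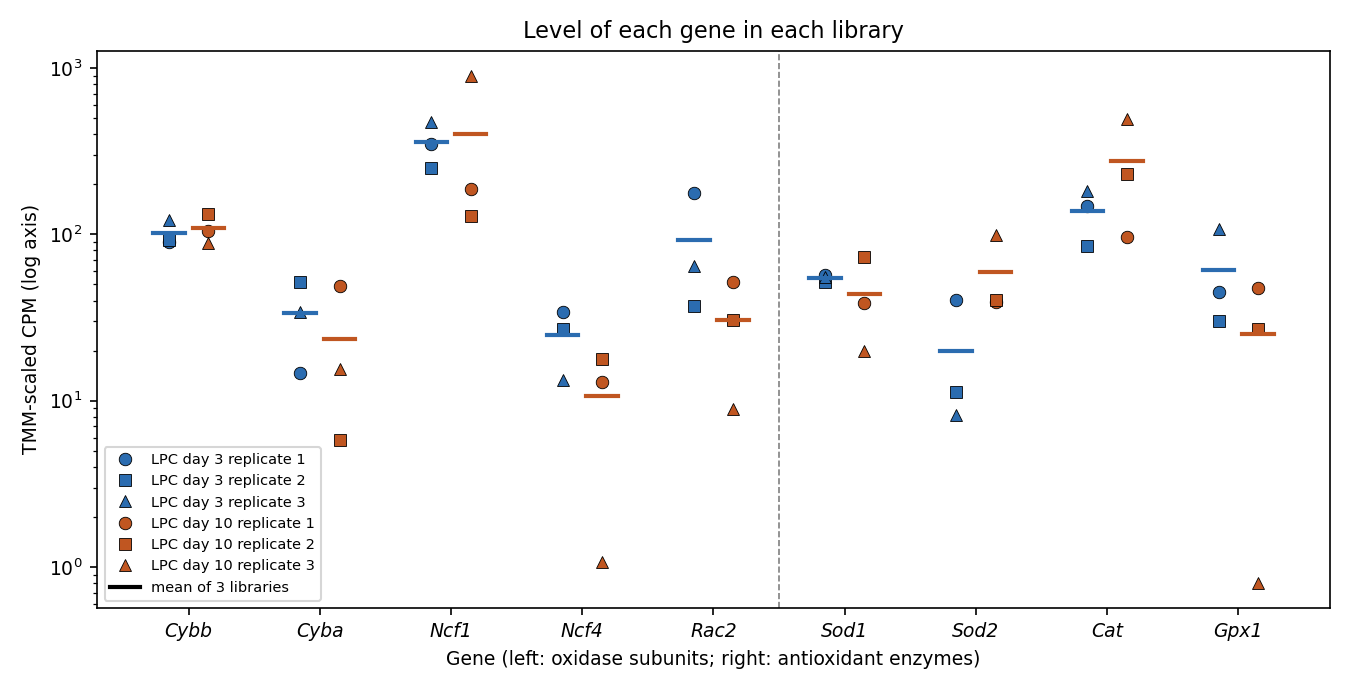
TMM-scaled CPM (log axis) of each of the 9 genes in every library, with LPC day 3 and LPC day 10 as separate groups and a bar at each group mean. The groups overlap for all 9 genes, Cybb varies least, and LPC day 10 replicate 3 is the lowest point for Cybb, Ncf4, Rac2, Sod1 and Gpx1 and the highest for Ncf1, Sod2 and Cat.

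Cybb, the catalytic subunit (ENSMUSG00000015340, GRCm38 chrX:9435252-9487771, minus strand), was the steadiest of the 9. It stood at 89.8, 92.2 and 122 CPM in day 3 replicates 1 to 3 and at 105, 132 and 88.8 CPM in the day 10 replicates. The highest and lowest libraries belonged to the same group, day 10, and differed 1.49-fold. The day 3 mean was 101 ± 18.1 CPM and the day 10 mean 109 ± 21.9 CPM (SD, n = 3 each, as for the other means). The log2 fold change was 0.10 ± 0.90 (SE), with a 95% interval of −1.72 to 1.91 and an adjusted p of 0.999 by edgeR. It was 0.20 ± 0.63 without LPC day 10 replicate 3. These intervals rest on a spread that edgeR estimates across genes, for which the common biological coefficient of variation was 1.11.

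A spread as small as that of Cybb was rare in these data. Of the 10535 genes tested, 8 had a ratio of highest to lowest library no larger than 1.49, Cybb included (0.0759%), and of the 2286 genes with a mean of 50 to 200 CPM, 3 did (0.131%). The evenness depended on the scaling. With library size as the sole scaling, Cybb ran from 56.0 to 150.6 CPM, a ratio of 2.69, and 8.66% of the genes in that range of means were as even. Over the 6 libraries, the genes whose log2 profile lay closest to that of Cybb, after centring each on its mean, were Atf7, a transcription factor, at a root mean square difference of 0.09, Arf1, a GTPase of vesicle budding, at 0.15, and Cntrl, a centrosomal protein, at 0.15. The median over 2934 genes was 1.00 on the same log2 scale.

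Cyba, the membrane partner (ENSMUSG00000006519, GRCm38 chr8:122424776-122432930, minus strand), varied far more than the subunit it pairs with. It stood at 14.7, 52.0 and 34.3 CPM at day 3 and at 49.2, 5.81 and 15.6 CPM at day 10. LPC day 10 replicate 2, which was highest for Cybb, was lowest for Cyba, and the 6 libraries spanned 8.94-fold. Means were 33.7 ± 18.6 CPM and 23.5 ± 22.8 CPM, and the log2 fold change was −0.51 ± 1.29 (SE, adjusted p 0.999 by edgeR), or −0.34 ± 1.10 without LPC day 10 replicate 3. Levels of different genes can be compared only per length, for which the authors' deposited FPKM (fragments scaled for transcript length and library size) served by group. The within-library FPKM ratio of Cybb to Cyba was 0.32, 0.64 and 1.09 in the day 3 columns and 0.38, 1.02 and 4.06 in the day 10 columns, in rising order, so it overlapped between days.

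Ncf1, the organizer that docks the cytosolic complex on Cyba (ENSMUSG00000015950, GRCm38 chr5:134220053-134229625, minus strand), was the gene that turned most on a single library. It stood at 350 (3568 counts), 249.1 and 471 CPM at day 3 and at 188, 128 and 895 CPM at day 10. LPC day 10 replicate 3 was the highest of all 6 and replicates 1 and 2 of that day were the lowest. Means were 357 ± 111 CPM and 404 ± 426 CPM, and the log2 fold change was 0.18 ± 0.79 (SE, 95% interval −1.42 to 1.77, adjusted p 0.999 by edgeR). Without LPC day 10 replicate 3 the sign turned, to −1.21 ± 0.57 with a 95% interval of −2.39 to −0.03. Both remaining day 10 libraries then lay below all 3 day 3 libraries in TMM-scaled CPM. The unadjusted p was 0.0453 by edgeR while the adjusted p was 0.838. This depended on the scaling. With library size as the sole scaling, and without LPC day 10 replicate 3, Ncf1 had −0.82 ± 0.56, with an unadjusted p of 0.164 by edgeR.

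Ncf1 was the 1 of the 9 genes separated in the TMM-scaled 5-library comparison, where 7.89% of all genes tested were separated in the same direction. As higher, 12.4% of all genes tested and 0 of the 9 were separated. Ncf1 was also the 1 of 9 at an unadjusted p under 0.05 by edgeR, where 5.84% of all genes tested were. In GENCODE M21, 408 exon bases of Ncf1 overlap Gtf2ird2 on the opposite strand, and no source used here says whether strand was used in counting. Gtf2ird2 had 30, 83 and 94 counts at day 3 and 312, 169 and 1296 at day 10, the last in the library where Ncf1 had 3327. Gtf2ird2 was thus highest in the same library as Ncf1 in CPM, and its part in the Ncf1 value was not tested.

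Ncf4, which binds phosphoinositide on the phagosome membrane (ENSMUSG00000071715, GRCm38 chr15:78244801-78262580, plus strand), was low throughout. It stood at 34.3, 26.9 and 13.4 CPM at day 3 and at 12.98, 17.8 and 1.08 CPM at day 10. The last value rests on 4 counts, with an exact Poisson 95% interval of 0.293 to 2.75 CPM that covers counting error only, since the cDNA was amplified and carried no molecular identifiers. It lay 12.1-fold below the lowest of the other libraries, while replicates 1 and 2 of day 10 lay within the day 3 range or just under it. Means were 24.9 ± 10.6 CPM and 10.6 ± 8.59 CPM, with a log2 fold change of −1.22 ± 1.51 (SE, adjusted p 0.999 by edgeR) and of −0.72 ± 1.22 without LPC day 10 replicate 3.

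Rac2, the GTPase of blood-lineage cells that switches the assembled oxidase on (ENSMUSG00000033220, GRCm38 chr15:78559167-78572783, minus strand), had the most negative fold change of the 9. It stood at 178, 36.9 and 64.4 CPM at day 3 and at 51.8, 30.4 and 8.88 CPM at day 10. One library was high, LPC day 3 replicate 1, and the other 5 spread downward from 64.4 CPM with the days interleaved. Means were 93.0 ± 74.7 CPM and 30.4 ± 21.5 CPM. The log2 fold change was −1.61 ± 1.09 (SE, 95% interval −3.81 to 0.58), with an unadjusted p of 0.145 and an adjusted p of 0.999 by edgeR, and −1.21 ± 0.81 without LPC day 10 replicate 3. Rac1, the widely expressed relative that can serve the same oxidase, stood at 1053, 750 and 999 CPM in the day 3 libraries and at 422, 837 and 1359 CPM in those of day 10, with a log2 fold change of −0.10 ± 0.69. Per length, the FPKM ratio of Rac1 to Rac2 was 4.00 to 13.7 at day 3 (median 10.5) and 5.49 to 103 at day 10 (median 18.6), above 1 in every column.

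Sod1, the cytosolic copper-zinc dismutase (ENSMUSG00000022982, GRCm38 chr16:90220754-90226329, plus strand), was even at day 3 and scattered at day 10. It stood at 57.0, 51.7 and 55.6 CPM at day 3 and at 38.5, 73.5 and 19.9 CPM at day 10. The day 10 libraries lay on both sides of the narrow day 3 range. Means were 54.8 ± 2.76 CPM and 44.0 ± 27.2 CPM, with a log2 fold change of −0.32 ± 1.09 (SE, adjusted p 0.999 by edgeR) that became 0.01 ± 0.80 without LPC day 10 replicate 3. A pseudogene, Gm8566, matches 465 bases of Sod1 at 97.8% identity and had at most 16 counts in any library.

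Sod2, the mitochondrial manganese dismutase (ENSMUSG00000006818, GRCm38 chr17:13006846-13040063, plus strand), had the most positive fold change of the 9. It stood at 40.4, 11.2 and 8.20 CPM at day 3 and at 38.9, 40.3 and 99.8 CPM at day 10. LPC day 3 replicate 1 lay with the first 2 day 10 libraries, the other day 3 libraries lay below, and LPC day 10 replicate 3 lay above. Means were 19.9 ± 17.8 CPM and 59.7 ± 34.8 CPM. The log2 fold change was 1.58 ± 1.20 (SE, 95% interval −0.85 to 4.01), with an unadjusted p of 0.196 and an adjusted p of 0.999 by edgeR, and 0.96 ± 1.09 without LPC day 10 replicate 3.

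The Sod2 values come with a possible sharing of reads, noticed after they were seen. One annotated Sod2 transcript of the nonsense-mediated decay class shares 3110 bases at 98.3% identity with Rps6ka2, a ribosomal S6 kinase gene, while 0 protein-coding Sod2 transcripts do. Rps6ka2 had 15, 266 and 531 counts at day 3 and 56, 4 and 1 at day 10, so it was highest in the 2 libraries where Sod2 was lowest. Summed over both genes, day 3 libraries held 41.9, 49.1 and 72.3 CPM and day 10 libraries 44.8, 40.7 and 100.0 CPM. The sums had means of 54.4 ± 15.9 CPM and 61.8 ± 33.2 CPM, closer together than those of Sod2 alone, and how the counting divided such reads was not tested.

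Cat, which removes hydrogen peroxide in peroxisomes (ENSMUSG00000027187, GRCm38 chr2:103453849-103485160, minus strand), stood at 148, 85.0 and 183 CPM at day 3 and at 96.4, 231 and 497 CPM at day 10. LPC day 10 replicate 3 was 2.15 times the next highest library, and replicate 1 of that day was the second lowest of all. Means were 139 ± 49.7 CPM and 275 ± 204 CPM. The log2 fold change was 0.99 ± 0.84 (SE, adjusted p 0.999 by edgeR) and 0.22 ± 0.62 without LPC day 10 replicate 3, so most of the difference in means lay in that library.

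Gpx1, the glutathione-dependent peroxidase (ENSMUSG00000063856, GRCm38 chr9:108338903-108340343, plus strand), had the widest span of the 9. It stood at 45.1, 30.3 and 108 CPM at day 3 and at 47.6, 27.0 and 0.81 CPM at day 10. The last value rests on 3 counts (exact Poisson 95% interval 0.166 to 2.36 CPM) and lay 33.5-fold below the lowest of the other libraries, which themselves spanned 3.99-fold. Means were 61.1 ± 41.2 CPM and 25.2 ± 23.5 CPM, with a log2 fold change of −1.28 ± 1.23 (SE, adjusted p 0.999 by edgeR) and of −0.74 ± 0.88 without LPC day 10 replicate 3. Over the 6 libraries, by the same centred log2 measure, the profile closest to that of Gpx1 was Nnt, a mitochondrial transhydrogenase gene, at 0.27. Next were Abr, a regulator of Rac-type GTPases, at 0.29, and Hmgn1, a nucleosome-binding protein, at 0.32. The median over 2935 genes was 2.52. Nnt, Abr and Hmgn1 stood at 1.1, 2.7 and 1.9 CPM in LPC day 10 replicate 3 and at no less than 37 CPM in any other library.

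**Figure D2:**
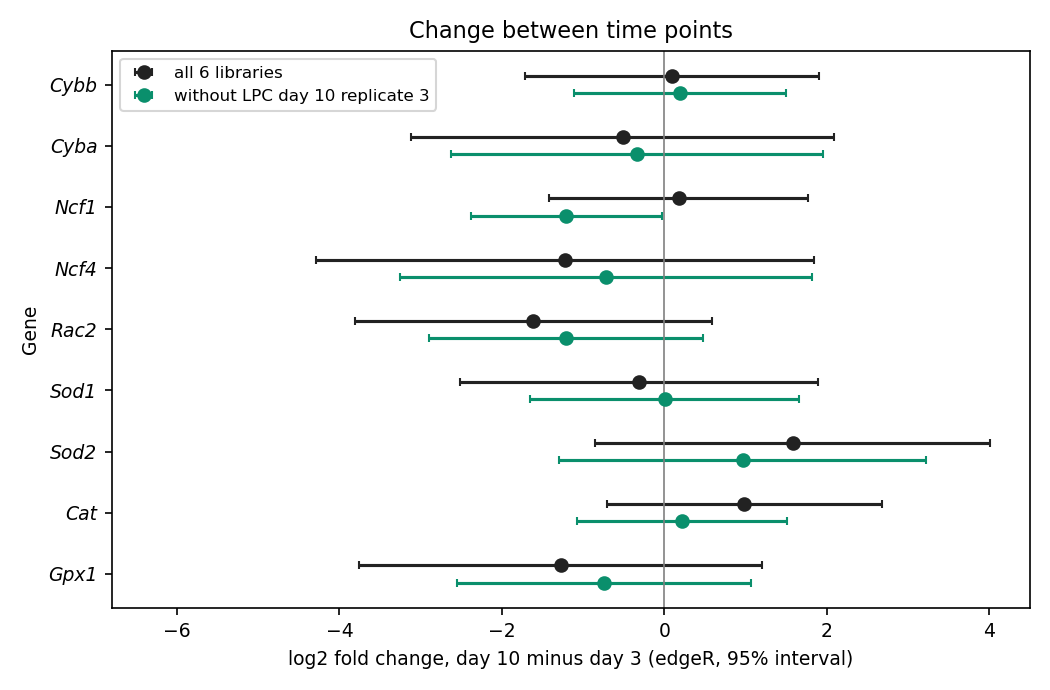
Log2 fold change, day 10 minus day 3, of each of the 9 genes from edgeR with all 6 libraries and without LPC day 10 replicate 3, with bars for the 95% interval. Every interval from all 6 libraries includes 0; without that library the interval of Ncf1 runs from −2.39 to −0.03.

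LPC day 10 replicate 3 held the extremes for 8 of the 9 genes. It was lowest of the 6 libraries for 5 of them (Cybb, Ncf4, Rac2, Sod1 and Gpx1), where it was lowest for 41.4% of all tested genes, and highest for 3 (Ncf1, Sod2 and Cat), where it was highest for 25.6%. It was at least 4-fold below each of the other libraries for Ncf4 and Gpx1, 2 of 9, which held for 31.1% of all tested genes. With 9 genes, these shares lie near those of the whole table and say nothing particular about the 9. Oxidase and antioxidant genes thus lay at both ends in this library, with Ncf1 and Cat above the other 5 and Rac2 and Gpx1 below them.

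Per length, the deposited FPKM set the 9 genes in an order with the same 3 at the top on both days. At day 3, Ncf1 led at 97.0 ± 25.3 FPKM, followed by Sod1 at 85.5 ± 11.6, Cat at 53.0 ± 17.7, Gpx1 at 41.2 ± 23.7, Rac2 at 32.3 ± 29.0, Cyba at 31.9 ± 17.2, Cybb at 17.4 ± 1.51, Ncf4 at 12.8 ± 6.53 and Sod2 at 5.57 ± 5.44 (SD, n = 3). Among neighbours in this order, Sod1 and Cat were the pair whose ranges did not overlap. At day 10, Cat and Ncf1 led together at 88.1 ± 33.5 and 88.0 ± 60.3 FPKM, with Sod1 at 74.2 ± 49.9, Cyba at 27.8 ± 35.0, Gpx1 at 22.4 ± 23.8, Cybb at 19.7 ± 8.77, Sod2 at 13.99 ± 2.88, Rac2 at 12.2 ± 11.5 and Ncf4 at 6.21 ± 5.09. All neighbours overlapped at day 10.

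Ncf1, Sod1 and Cat were therefore the 3 most abundant transcripts of the group per length on both days, and the oxidase's catalytic subunit ranked as the seventh of 9 at day 3 and the sixth at day 10. The dismutases differed in level: the FPKM ratio of Sod2 to Sod1 was 0.0249 to 0.12 at day 3 (median 0.0368) and 0.0925 to 0.847 at day 10 (median 0.171), below 1 in all columns. The ranges of this ratio overlapped between days. Sod2 may share reads with Rps6ka2, as described above, and the part of this in the ratio and in the rank of Sod2 was not tested.

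**Figure D3:**
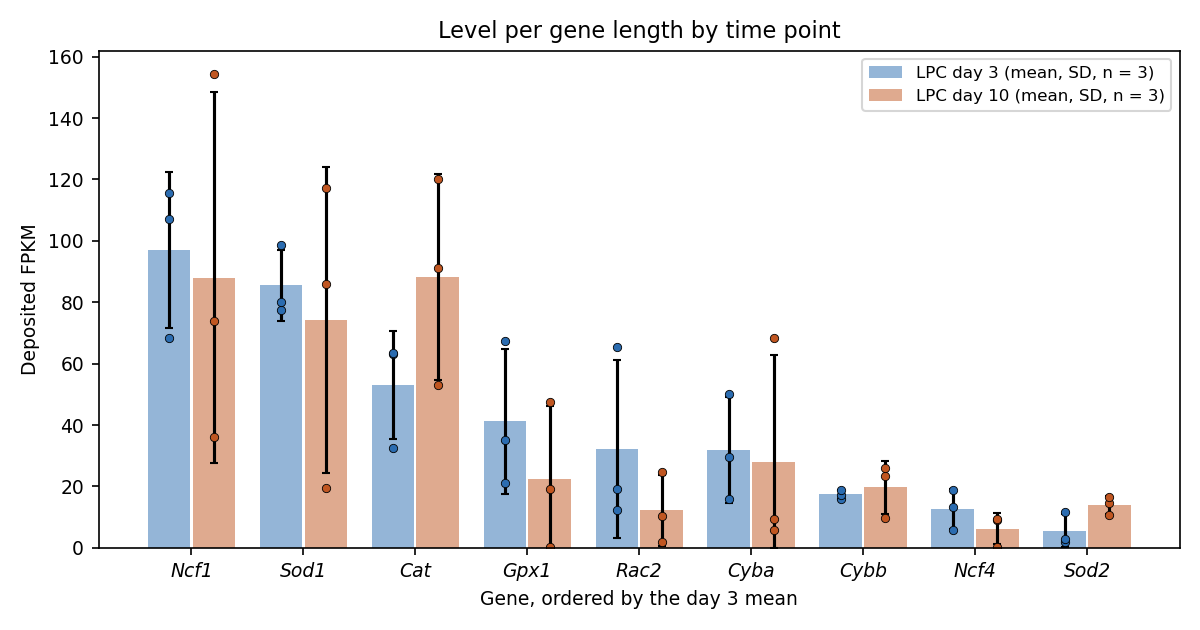
Deposited FPKM of the 9 genes in order of their day 3 mean, with bars from 0 to each group mean, error bars for the SD (not drawn under 0) and a point for each of the 3 columns of a group. Ncf1, Sod1 and Cat are the 3 highest on both days, and ranges of neighbours overlap except between Sod1 and Cat at day 3.

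In the authors' deposited table, whose fold changes are day 3 minus day 10 with unadjusted p-values, the lowest p among the 9 genes was 0.0844, for Sod2 at −1.67. The largest positive value in the authors' deposited table was 2.05 for Gpx1 (p = 0.179), followed by 1.68 for Ncf4 (p = 0.174) and 1.57 for Rac2 (p = 0.109). The remaining 5 genes had values of −0.61 to 0.82 in the authors' deposited table. After the change of sign, Ncf1 was the sole gene whose direction there, 0.49 for day 3 minus day 10, was opposite to that of the edgeR fold change.

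Other subunits and regulators of the oxidase had 0 of 10 tested genes called in either direction, with a median log2 fold change of −0.01 (5 positive and 5 negative), or −0.46 without LPC day 10 replicate 3. Of the genes with the smallest p in each direction, Cybc1, a chaperone that the Cybb-Cyba pair needs to mature, had 1.44 ± 1.13, but −0.53 without LPC day 10 replicate 3. Pla2g4a, a phospholipase that releases arachidonate, had 0.65 ± 1.04, and −0.10 without it. Pak1 and Prkcd, kinases able to phosphorylate Ncf1, had −1.48 ± 1.03 and −1.15 ± 0.95.

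Other NADPH oxidases were essentially undetected. Of 9 further NOX and DUOX genes, 7 were in the count table, none passed the filter, 4 were at 0 in all libraries and the highest single count was 4. Nox4, which makes hydrogen peroxide without the cytosolic subunits, had 0 counts in every library, which allows a level of up to 0.295 to 0.807 CPM depending on the library (3 counts). Among the NOX catalytic genes in the table, Cybb, at 88.8 to 132 CPM, was the one that passed the filter.

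Among other genes of the glutathione and dismutase families, 0 of 5 tested were called, with a median log2 fold change of −0.07, or 0.17 over the 6 genes tested without LPC day 10 replicate 3. The largest differences were −1.55 ± 1.80 for Gpx3, a secreted peroxidase, and 0.92 ± 1.99 for Gsto1, a glutathione transferase. Gclc and Gclm, the subunits of the enzyme that limits glutathione synthesis, had 0.38 ± 1.15 (−0.91 without that library) and −0.70 ± 1.99. Gpx4, which reduces lipid peroxides, did not pass the filter, at 0 to 3.74 CPM. Sod3 was not analysed here.

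In the peroxiredoxin and thioredoxin system, 0 of 12 tested genes were called and the median log2 fold change was 0.10, or −0.67 without LPC day 10 replicate 3. Prdx5, a peroxiredoxin found in mitochondria and peroxisomes, was the 1 of these 12 with an unadjusted p under 0.05 by edgeR. Over all tested genes, 6.13% passed that threshold with all 6 libraries and 5.84% without LPC day 10 replicate 3. Prdx5 stood at 0.98, 2.99 and 5.31 CPM at day 3 and at 73.4, 24.9 and 2.42 CPM at day 10. Day 10 replicates 1 and 2 were above all day 3 libraries and replicate 3 was within them; the log2 fold change was 3.44 ± 1.66 (SE), with an unadjusted p of 0.0447 and an adjusted p of 0.791 by edgeR. Without LPC day 10 replicate 3 it was 3.95, with an unadjusted p of 0.00598 and an adjusted p of 0.766 by edgeR. Txn2, the mitochondrial thioredoxin, had 1.89 ± 1.43 with all libraries and 0.60 without that library. Glrx, a glutaredoxin, and Prdx4, a peroxiredoxin of the secretory pathway, had −2.12 ± 1.74 and −1.58 ± 1.55. Prdx1, the cytosolic peroxiredoxin, had 0.72 ± 0.99 with all libraries and −1.27 without LPC day 10 replicate 3, and Txn1, the cytosolic thioredoxin, had 0.89 ± 2.00 at 0 to 11.2 CPM.

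The NRF2 axis, whose transcription factor Nfe2l2 drives many antioxidant genes and is held in check by Keap1 and Bach1, had 0 of 8 tested genes called and a median log2 fold change of 0.15, or −0.25 over the 9 tested without LPC day 10 replicate 3. Nfe2l2 itself stood at 411, 502 and 487 CPM at day 3 and at 247, 550 and 1893 CPM at day 10, for 0.94 ± 0.75 with all libraries and −0.25 without LPC day 10 replicate 3. Hmox2, the constitutive heme oxygenase, had 2.84 ± 1.43 (unadjusted p 0.0545 and adjusted p 0.830 by edgeR), and this rested on 178 CPM in LPC day 10 replicate 3 against 0.48 to 14.5 in the others. Without that library the value was −0.55. The inducible Hmox1 had 0.35 ± 1.40, Bach1 −1.52 ± 1.04, and Nqo1, a quinone reductase and classic NRF2 target, was at 0 counts throughout.

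Of the 35 tested genes in the other pathway lists, 1 was lower in all 3 day 10 libraries, no more than the 4.97% of all tested genes that were. That gene, G6pdx, the pentose phosphate enzyme that supplies NADPH, stood at 31.2, 38.2 and 13.98 CPM at day 10 against 59.9, 47.4 and 63.7 CPM at day 3, with a log2 fold change of −1.03 ± 1.14 (SE, adjusted p 0.999 by edgeR). Keap1 was at 45.1 and 10.2 CPM in day 10 replicates 1 and 2 and at 0.12 to 0.49 CPM in the other 4 libraries. It did not pass the filter on low counts with all 6 libraries, so no fold change is given for them. Without LPC day 10 replicate 3 the log2 fold change of Keap1 was 6.42 ± 1.83 (SE). The unadjusted p was 0.00194 and the adjusted p 0.7085 by edgeR. The day 3 levels rest on 5, 2 and 1 counts, which limits the precision of that value.

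**Figure D4:**
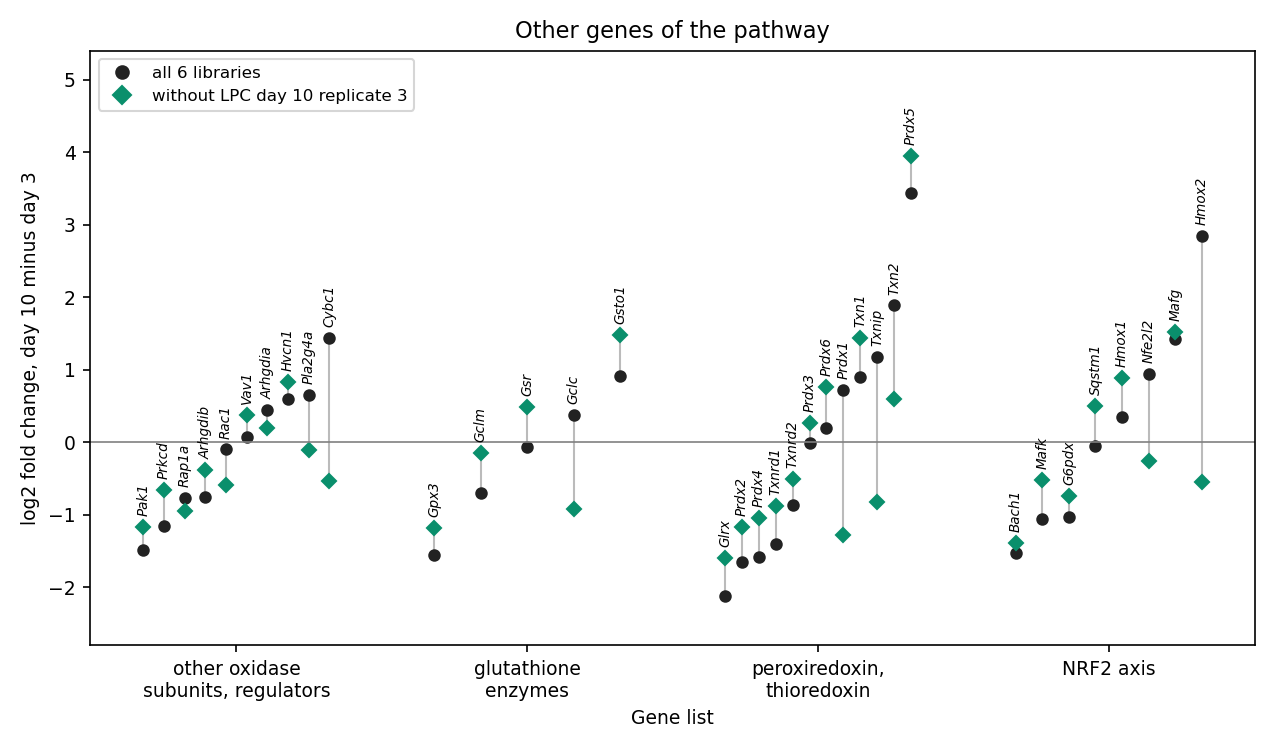
Log2 fold change (edgeR), day 10 minus day 3, of the tested genes of the 4 other pathway lists, with all 6 libraries (dark circles) and without LPC day 10 replicate 3 (green diamonds, joined to the circle of the same gene). No gene shown passed an adjusted p under 0.05 in either fit, and 10 of the 35 lie on opposite sides of 0 in the 2 fits, Hmox2, Cybc1, Prdx1 and Nfe2l2 among them.

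Transcripts of other cell types were read beside these values because neutrophils and monocytes also carry the phagocyte oxidase. Of 8 neutrophil markers in the table, 7 had a count in LPC day 3 replicate 3 and 1 or 2 in each other library; Csf3r, which led the list in every library, was at 326 to 567 CPM throughout, and the summed level was 452 to 517 CPM at day 3 and 326 to 567 CPM at day 10. In that day 3 library S100a8, S100a9 and Ngp, singled out after their values were seen, reached 55.0, 23.2 and 28.0 CPM against at most 1 count elsewhere, and Mpo was at 0 in all libraries. Gpx1 was highest in the same library, at 108 CPM, and the part of these transcripts in that value was not tested. Among the 3 day 3 libraries, Cybb, Ncf1 and Cat were also highest there, and Ncf4 and Sod2 lowest.

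Border-associated macrophage markers, 6 in the table, summed to 24.4 to 93.4 CPM at day 3 and 6.07 to 6.996 CPM at day 10. Mrc1, the most abundant of them, made up most of each sum, at 19.8 to 93.2 CPM and 3.88 to 6.19 CPM. The others did not share a direction. Pf4 and Ms4a7 had 0 counts at day 3 and reached 1.51 and 1.29 CPM in LPC day 10 replicate 2. Cd163 and F13a1 reached 3.44 and 0.98 CPM in LPC day 3 replicate 1, and Cbr2 13.99 CPM in LPC day 3 replicate 3. At day 10 these last genes were at no more than 0.22 CPM. Of the 27 tested genes of all marker lists, 2 were lower in all 3 day 10 libraries, Mrc1 and the microglial Olfml3, and 2 were higher in all 3, the myelin gene Mbp (0.24 to 10.3 CPM at day 3, 13.2 to 62.3 at day 10) and the endothelial receptor gene Kdr (0 to 0.84 CPM, then 11.4 to 14.8), where Olfml3, Mbp and Kdr were singled out after their values were seen. Over all tested genes, the same separation was seen in 4.97% for lower at day 10 and in 3.47% for higher. The part of these marker genes in the values of the 9 genes was not tested. Blood monocyte markers summed to 20.5 to 168 CPM at day 3 and 18.8 to 203 at day 10, led by Fn1. T cell markers were at or near 0, with a highest sum of 0.0982 CPM from Cd8a. B cell markers summed to 337 to 820 CPM, nearly all Ighm. The other 6 lists reached highest sums of 128.5 CPM for astrocytes (mainly Slc1a3), 114 for oligodendrocytes (Mbp at 62.3 and Cnp at 41.5), 106 for their progenitors (Cspg4), 94.6 for endothelium (Flt1), 18.4 for erythroid cells (Alas2) and 10.9 for neurons (Rbfox3). The part of these lists in those values was not tested either.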

How the data were processed

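The authors deposited raw counts per Ensembl gene, a table of log2 values, an FPKM table and a table of log2 fold changes with unadjusted p-values. The submitters' processing notes name the GRCm38 genome build, limma 3.30.8, edgeR 3.16.5, the aligner STAR 2.5.2a and R 3.3.2. Counting program, annotation release and strand: not given in the sources used here. In each library the deposited log2 table equals log2(count + 0.5) minus a constant per library within 0.0095. The deposited FPKM columns are named by time point without a replicate number, so they were used by group. The sign of the authors' fold change was read from the log2 table (r = −0.996 with day 10 minus day 3, across genes).

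The counts were tested in R 4.3.3 by the quasi-likelihood F-test of edgeR 4.0.16, after TMM scaling and filterByExpr (minimum count 10), with Benjamini-Hochberg adjustment over all genes tested. SEs are the size of the log2 fold change over the root of F. Alternatives used limma 3.58.1 and DESeq2 1.42.0. The code was tested on simulated data. Gene positions are from GENCODE M21.

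The 9 genes and the pathway and marker lists were chosen with earlier results of these data known. Named genes are the 9, the 2 tested genes of smallest p in each direction of each pathway list, a fixed set of pathway genes, the most abundant gene of each marker list, and the 3 genes closest in profile to Cybb and to Gpx1 (mean of at least 50 CPM). A further gene of the oxidase list is not reported here. Libraries were treated as unpaired: the labels give replicate numbers as an order within a group and name no pairing.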

Additional observations from a re-analysis of the deposited data

How the results depend on the processing

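No alternative called any of the 9 genes or any gene of the pathway lists. Of 171 fold changes (9 genes under 19 alternatives), 155 kept their direction and 16 reversed. Ncf4, Rac2 and Gpx1 stayed negative and Sod2 and Cat positive throughout, and the lowest adjusted p of the 9 genes in any alternative was 0.535, for Sod2 by DESeq2. Ncf1 reversed under upper-quartile scaling (−0.091), library size only (−0.135), voom with quality weights (−1.10), limma on log2(FPKM + 1) with and without a minimum mean of 1 FPKM (−0.34 each) and on log2(FPKM + 0.1) (−0.35). With the replicate number as a block, Ncf1 was −0.33 and 0 genes were called; the block lost no call of the 9. Same-numbered libraries correlated at 0.073, −0.035 and 0.007 in their deviations from the group means. With 3 libraries a group these values cannot decide whether any were handled together, and the labels name no pairing. Sod1 was 0.024 with voom weights. When 1 library was left out, Cybb ranged from −0.086 to 0.277, Ncf1 from −1.206 to 0.592 and Sod1 from −0.924 to 0.008. In 2 alternatives chosen after seeing the data, both without LPC day 10 replicate 3, library size only gave −0.817 for Ncf1, 0.25 for Sod1 and 0.217 for Cyba, and RLE scaling gave −1.245 for Ncf1. The cause was not tested. Among all genes, 12 were called by the reported fit, 0 under RLE scaling, library size only, the block and each FPKM fit, 10 under upper-quartile scaling, 3 with voom weights, 21 with a 1 CPM filter, 64 by DESeq2, 118 with no filter, and 1 to 211 when 1 library was left out. RLE scaling moved the median of all genes by 0.13. Gpx1 and Ncf4 had 3 and 4 counts in LPC day 10 replicate 3, which limits the precision of those levels.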
